A study of Mus musculus with 2 samples.

Results

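The microRNA genes Mir22, Mir33, Mir103-1, Mir103-2, Mir107 and Mir802, together with reads at the place of Mir378a, were examined in newborn mouse liver. The genes were chosen by name, for what is known of them in lipid and glucose metabolism, and their identifiers were matched to symbols in GENCODE. They are 7 of the 1973 gene entries of the count tables. Mir378a has no entry of its own in these tables. Its reads were taken from the opposite strand of the entry Gm25301, which covers the same place. The material was whole liver tissue of strain B6NCrl at postnatal day 0, with no treatment and no altered allele named in the labels. The 2 livers came from pup 1 and pup 2 of 1 pregnant female, are listed under the same donor entry, and each gave 1 library from total RNA with inserts below 30 bases. Sex was not collected. The design therefore holds 1 group of 2 pups and no second condition.

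MicroRNAs are short RNAs cut from hairpin precursors. They guide Argonaute proteins to messenger RNAs that match their seed, bases 2 to 8, and lower the output of those messengers. Mir33 lies in the gene of the sterol regulator SREBP-2 and represses the cholesterol exporter Abca1. Mir103 and Mir107 lie in genes of pantothenate kinases, the enzymes that start coenzyme A synthesis, and are known as negative regulators of insulin sensitivity in liver and fat. Mir378a lies in Ppargc1b, a coactivator of mitochondrial and lipid genes. Mir802 is known for its rise in the liver of obese mice. Mir22 is known in liver as a repressor of regulators of fatty acid oxidation.

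Mature sequences of 6 of the 7 genes were present in the RefSeq table (GRCm38.p6, the assembly also called mm10). They are shown because the shared letters of the Mir103 and Mir107 arms bear on which reads could be counted. Capitals mark the seed.
miR-22-3p: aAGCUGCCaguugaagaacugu
miR-22-5p: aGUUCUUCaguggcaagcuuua
miR-33-5p: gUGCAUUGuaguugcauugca
miR-33-3p: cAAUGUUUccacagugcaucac
miR-802-5p: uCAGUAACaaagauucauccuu
miR-802-3p: aCGGAGAGucuuugucacucag
miR-103-3p: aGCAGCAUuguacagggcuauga
miR-107-3p: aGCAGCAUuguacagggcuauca
miR-103-1-5p: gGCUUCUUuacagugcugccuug
miR-103-2-5p: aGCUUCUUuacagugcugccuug
miR-107-5p: aGCUUCUUuacaguguugccuug

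No other mature sequence of the RefSeq table shared a seed with either arm of Mir22, Mir33 or Mir802. The 3p arms of Mir103-1, Mir103-2 and Mir107 had the seed GCAGCAU in common, and their 5p arms the seed GCUUCUU. Mir103-1 and Mir103-2 have the same 3p arm. With positions counted from 1 at the 5′ end, miR-103-3p and miR-107-3p differ by G22C alone, so their first 21 bases are the same. The 5p arms of Mir103-1 and Mir103-2 differ by G1A, and those of Mir103-2 and Mir107 by C16U.

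The genes lie on different chromosomes, apart from Mir22 and Mir103-1 on chromosome 11. In mm10, Mir22 occupies chr11:75463716-75463810 on the plus strand, in exon 2 of its non-coding host transcript Mir22hg and of a processed transcript of Tlcd2. Mir33 (chr15:82198122-82198190, plus strand) lies in an intron of Srebf2, intron 16 of 18 in the transcript of widest span. The 3 loci of the Mir103 and Mir107 group each lie in intron 5 of a different pantothenate kinase gene. Mir103-1 (chr11:35782396-35782481, plus strand) is in intron 5 of 6 of Pank3. Mir103-2 (chr2:131288052-131288137, plus strand) is in intron 5 of 6 of the basic Pank2 transcript, and Mir107 (chr19:34820687-34820773, minus strand) in intron 5 of 6 of the Pank1 transcript of widest span. Mir802 (chr16:93369720-93369816, plus strand) overlaps no other annotated transcript, and the nearest protein-coding gene, Setd4, is 213641 bases away. Mir378a (chr18:61397835-61397900, minus strand) lies in intron 1 of Ppargc1b, on the strand of that gene and inside the plus-strand entry Gm25301 (chr18:61397813-61397925).

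Levels are gene-strand counts per 1000000 gene-strand microRNA counts of the library (CPM), which numbered 3422622 in pup 1 and 4538427 in pup 2. For Gm25301 the opposite-strand count was divided by the same totals. A read is a whole small RNA, so levels were not divided by gene length. Of the hepatocyte markers, Mir122 led both libraries, at 342309 and 354940 CPM, and Mir192 stood at 8829 and 8662 CPM. A count of 0 allows up to 0.877 CPM of uniquely mapped reads in pup 1 and 0.661 CPM in pup 2. Such limits, like the 95% intervals given with levels and ratios, cover the counting error of reads alone. PCR copies of a molecule are counted as separate reads, so the limits and intervals may be too narrow for molecules. Markers of other cell types were counted too. Endothelial Mir126a stood at 65978 and 69174 CPM, mesenchymal Mir143 at 13832 and 14617 CPM and mesenchymal Mir214 at 702 and 697 CPM. The erythroid pair Mir451a and Mir144 had a sum of 5251 and 5096 CPM. Leukocyte Mir223 and Mir155 had a sum of 8682 and 7955 CPM, nearly all of it Mir223, with Mir155 at 114 and 109 CPM. Of the pancreas-linked markers, Mir375 stood at 1924 and 2084 CPM and Mir217 at 20.7 and 26.2 CPM. The level of a marker alone does not show that cells of its type were present. In whole tissue, fewer cells of a type and less RNA per cell cannot be told apart. The 4 skeletal muscle markers had a sum of 136 CPM in pup 1 and 1008 CPM in pup 2, nearly all of it Mir206, at 136 and 1004 CPM. Mir133b stood at 0.292 and 4.41 CPM, and Mir1a-1 and Mir133a-1 were listed at 0, as was the neural marker Mir124a-1. The mature products of those last 3 genes are also made from other loci, and reads at several loci are on no gene, so their zeros set no limit on the mature microRNAs. The part of muscle RNA in the differences between the pups described here was not tested.

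By uniquely mapped reads, the 7 metabolic genes fell into an abundant group and a scarce group. Reads at several loci are not in these levels, which matters most for the Mir103 loci, as described below. Mir22, the place of Mir378a and Mir107 lay at 2760 CPM or more in each pup, while Mir802, Mir33, Mir103-2 and Mir103-1 were all below 100 CPM. Together the genes held 3.63% of the counts in pup 1 and 3.79% in pup 2, a mean of 3.71% ± 0.113 (SD, n = 2 pups). The 3 abundant genes made up 99.5% of that sum in each pup. Detection meant 10 or more counts in each library, which 312 genes reached. Their median level was 160 CPM, and only these 3 of the 7 lay above it. The order of the levels was the same in both pups.

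**Figure D1:**
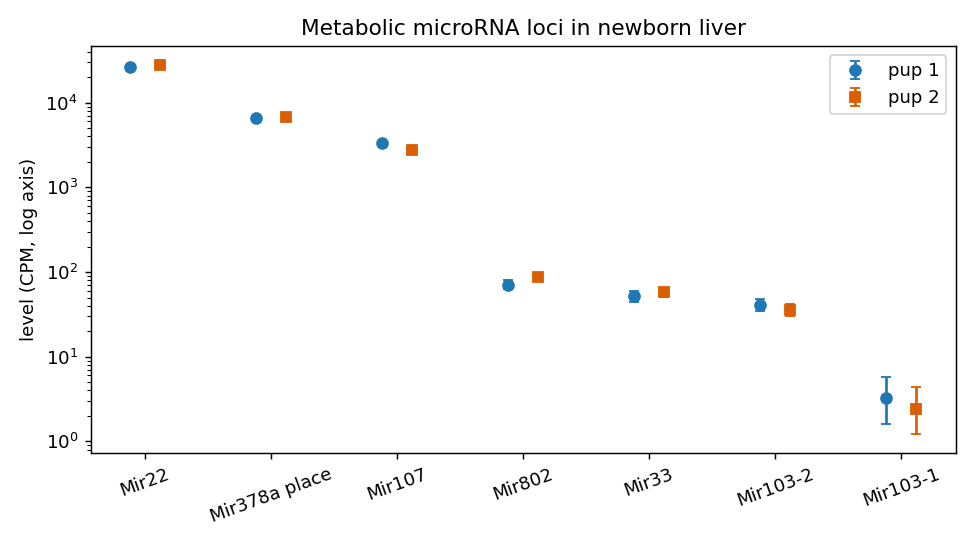
Level of each gene in CPM (log axis) in pup 1 (circles) and pup 2 (squares), with exact 95% counting intervals as bars. Mir22 stands highest, at 26130 and 28133 CPM, and Mir103-1 lowest, at 3.21 and 2.42 CPM.

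Mir22 was the most abundant of the group. It had 89432 counts in pup 1 and 127679 in pup 2, or 26130 CPM (exact Clopper-Pearson interval 25961 to 26299) and 28133 CPM (27981 to 28285). It ranked 6 among all genes in each pup and supplied 71.9% and 74.2% of the counts of the 7 genes. Mir122 stood 12.9 ± 0.342 times higher. The neighbours of Mir22 in the overall order were Mir21a, at 35733 and 29941 CPM, and Mir335, at 23736 and 21002 CPM. Neither neighbour overlapped it, and both gaps were larger than the sum of the SDs.

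The place of Mir378a came next. The opposite strand of Gm25301 carried 22797 and 31140 counts, or 6661 CPM (6575 to 6747) and 6861 CPM (6786 to 6938). Set among the gene-strand levels of the other genes, this level would rank 28 in each pup, between Mir541 and Mirlet7d, both of which overlapped it. All ranks given here are among gene-strand levels. Other entries with opposite-strand reads, some with more than Gm25301, were not placed in them by those reads. The Mir22 level was 4.01 ± 0.125 times that of the Mir378a place. The other Mir378 loci had few uniquely mapped reads. Reads common to several Mir378 loci would be on no gene, and how much sequence these loci share was not searched. Mir378b had 1 and 3 counts, Mir378c 3 and 8, and Mir378d 14 and 13. Their sum of 5.26 and 5.29 CPM amounted to 0.0790% and 0.0771% of the reads at the Mir378a place.

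Gm25301 itself had 0 gene-strand counts in both pups. Its opposite-strand reads made up 13.7% (13.5% to 13.8%) and 14.6% (14.4% to 14.7%) of all opposite-strand counts, the fourth largest amount in each library. At least 1000 opposite-strand counts were found at 8 entries in each pup, and all 8 had at most 10 counts on their own strand. The other 6 metabolic genes had 0 opposite-strand counts in both pups, so for them the choice of strand left the count as it was.

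**Figure D2:**
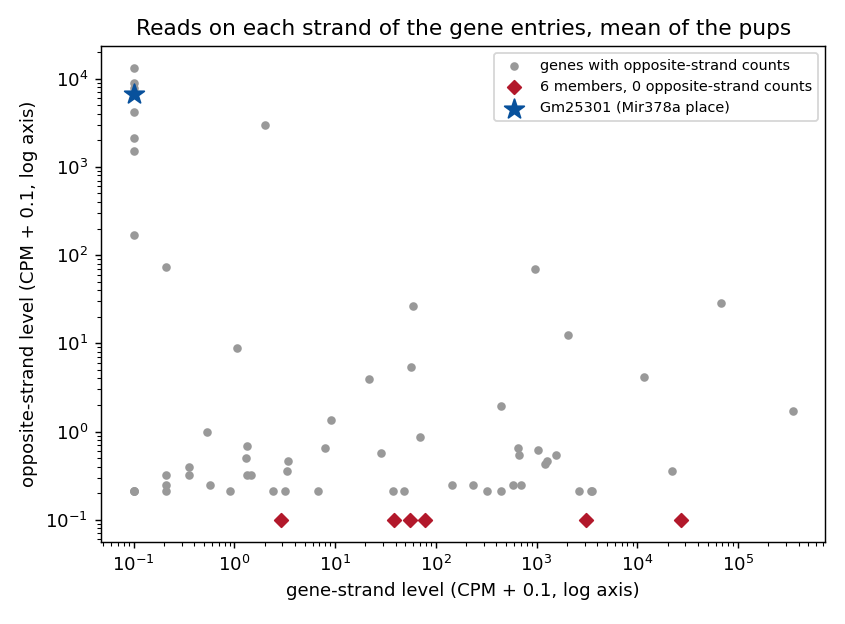
Gene-strand level (x axis) against opposite-strand level (y axis) for each entry with opposite-strand reads and for the metabolic genes, as the mean of the pups in CPM + 0.1, both axes log. Gm25301 lies at the left edge with reads on the opposite strand only, and the 6 other genes lie along the bottom with none.

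Mir107 held nearly all the counted reads of the Mir103 and Mir107 group. It had 11566 counts in pup 1 and 12528 in pup 2, or 3379 CPM (3318 to 3441) and 2760 CPM (2712 to 2809). Its rank was 44 in pup 1 and 50 in pup 2. Its neighbours Mir106b and Mir98, at 3187 and 3069 CPM and at 2933 and 3155 CPM, overlapped it. Mir103-2 had 140 and 161 counts, or 40.9 CPM (34.4 to 48.3) and 35.5 CPM (30.2 to 41.4). Mir103-1 had 11 counts in each pup, or 3.21 CPM (1.60 to 5.75) and 2.42 CPM (1.21 to 4.34). It was last of the 312 genes by mean level.

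Within the group Mir107 took 98.7% and 98.6% of the counts, 74.7 ± 2.66 times the sum of both Mir103 loci. Of the Mir103 counts, 92.7% (87.3% to 96.3%) and 93.6% (88.8% to 96.8%) were on Mir103-2, so the excess over Mir103-1 was larger than counting error in each pup. These ratios do not measure the abundance of the mature microRNAs. Reads that mapped to several loci are on no gene, and they numbered 0.444 per counted read in pup 1 and 0.450 in pup 2. How many of them were miR-103 is not known from the tables.

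The sequences show how unevenly that rule falls on the group. Each hairpin was searched against the other hairpins of the RefSeq table, both strands, 1005 hairpins in all, for the shortest stretch from a given start that occurs in no other. From the first base of the 3p arm, this length was 25 bases for Mir103-1 and for Mir103-2, longer than the 23 bases of the mature sequence. It was 22 bases for Mir107, within its mature sequence. From the first base of the 5p arm it was 15 bases for Mir103-1, the shortest tried, and 16 bases for both Mir103-2 and Mir107. For both arms of Mir22, Mir33 and Mir802 it was 15 bases. A whole miR-103-3p read thus matches both Mir103 loci, whereas a whole miR-107-3p read matches its own hairpin alone.

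**Figure D3:**
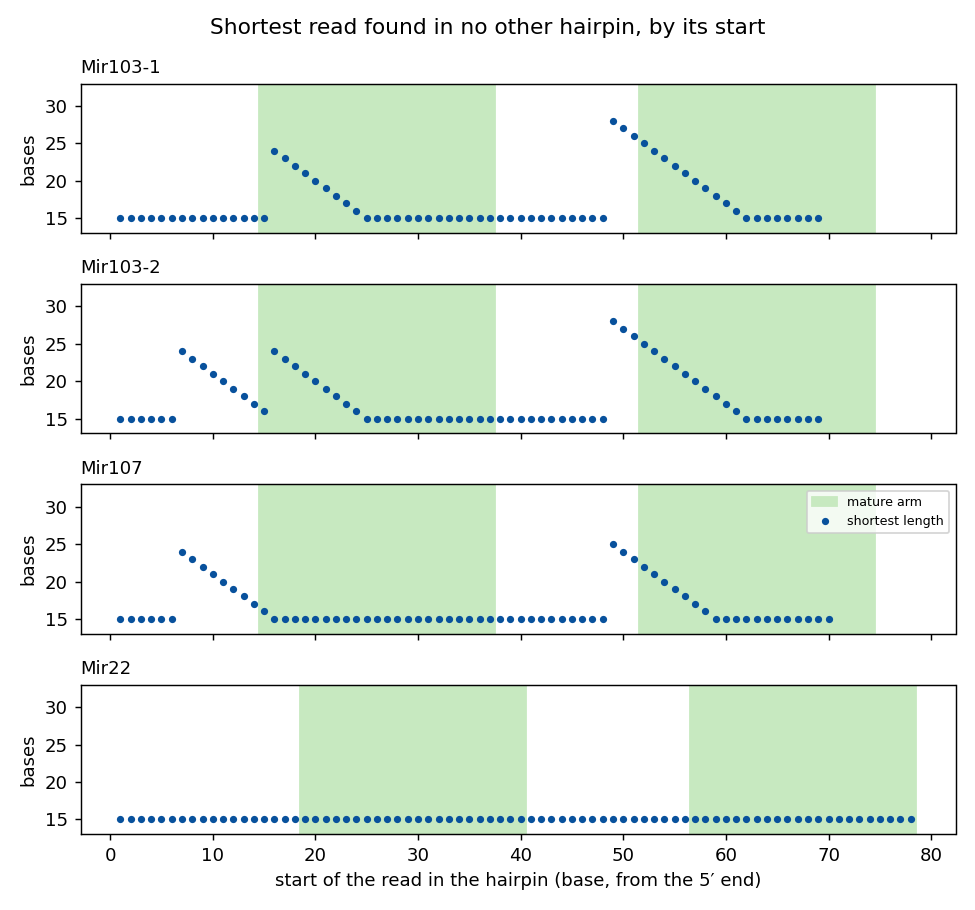
Shortest read length, in bases, found in no other RefSeq hairpin (y axis) for each start in the hairpin (x axis, from the 5′ end), with the mature arms shaded and 15 as the shortest length tried. At the start of the 3p arm, the right shaded block, the value is 25 for Mir103-1 and Mir103-2 and 22 for Mir107, while Mir22 is at 15 throughout.

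The hairpins of the group are close relatives along their whole length. In a global alignment Mir103-1 and Mir103-2 were 80.2% identical, Mir103-1 and Mir107 80.9%, and Mir103-2 and Mir107 83.9%. The longest stretch common to both Mir103 hairpins had 27 bases, and each shared 24 bases with Mir107. Of the 12 mature entries of the 6 genes, 2 were found whole in another hairpin, miR-103-3p at each of its loci. That is 16.7%, beside 8.39% of the 1501 mature entries of all loci in the count tables. With 1 mismatch allowed, 5 of the 11 distinct mature sequences had a match elsewhere, all of them from the Mir103 and Mir107 group. The first bases of miR-103-3p and miR-107-3p, AGCAGCA, are also the seed of 10 other mature microRNAs, among them miR-15a-5p, miR-16-5p and miR-322-5p, which was looked up after the values were seen. The 10 loci in the count tables that carry such a sequence held 24948 and 23976 CPM in sum.

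Mir802 and Mir33, the single-copy genes of the scarce group, were both low but well above the detection limit. Mir802 had 243 and 393 counts, or 71.0 CPM (62.4 to 80.5) and 86.6 CPM (78.2 to 95.6). Mir33 had 178 and 263 counts, or 52.0 CPM (44.6 to 60.2) and 57.9 CPM (51.2 to 65.4). Mir802 was higher than Mir33 in both pups, by 1.37-fold and 1.49-fold, and their intervals did not overlap in either. Mir33 stood above Mir103-2 by 1.27-fold and 1.63-fold, with intervals that overlapped in pup 1 and not in pup 2. Mir33 ranked 198 and 195 and was not separated from its neighbours Mir486 and Mir331. Mir802 ranked 191 and 184 and was not separated from Mir666 and Mir700. All 6 steps in the order of the 7 genes were larger than the sum of the SDs, with no overlap between pups, although an exact permutation test over 2 pups could not reach 0.05.

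The precursors were folded in silico as well. RNAfold gave minimum free energies of -41.9 kcal/mol for the Mir22 hairpin, -41.2 for Mir107, -35.8 for Mir103-1, -32.2 for Mir33, -31.8 for Mir103-2 and -30.8 for Mir802. The median over 272 detected hairpins was -36.7 kcal/mol. These values are not scaled for length, which ran from 69 bases for Mir33 to 97 for Mir802. Per base they were -0.474 for Mir107, -0.467 for Mir33, -0.441 for Mir22, -0.416 for Mir103-1, -0.370 for Mir103-2 and -0.318 for Mir802. The median per base was -0.435 kcal/mol. Mir802 had the lowest GC content of the 6, at 38.1%, and Mir22 the highest, at 55.8%, on either side of the detected median. These are descriptions of 6 sequences.

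The pups were then compared to see how steady the levels were between littermates. Each gene with at least 10 counts over both libraries was tested with an exact two-sided binomial test, with p-values adjusted by Benjamini-Hochberg over 390 genes. The test sets these libraries against each other by counting error and does not compare conditions. Of the 6 genes tested, 2 differed, Mir22 and Mir107, beside 30.3% of all genes tested. Calls were more frequent among well-counted genes, at 78.0% of the 50 that had 10000 counts or more in each pup. The 2 calls were the 2 genes of the 6 that reach that depth.

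Mir22 was higher in pup 2, with a log2 ratio of 0.11 (0.09 to 0.12, adjusted p = 2.9e-63 by the exact binomial test), a 1.08-fold difference. Mir107 was lower in pup 2, with a log2 ratio of -0.29 (-0.33 to -0.26, adjusted p = 7.3e-54 by the exact binomial test), a 1.22-fold difference. In each pup 221 genes had 100 or more counts, and 31 of these had a ratio as large as that of Mir107, itself included. The negative binomial test of edgeR adds a dispersion estimated from the difference of the pups themselves. It called 0 of the 6 genes, with 0 at an unadjusted p under 0.05. The same test called 2 of all 390 genes, Mir206 and Mir669f, which are named here after their values were seen.

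Mir802 had a log2 ratio of 0.29 (0.05 to 0.52), close in size to that of Mir107, and did not pass (adjusted p = 0.053, exact binomial test). The log2 ratio was 0.16 (-0.12 to 0.44) for Mir33, -0.21 (-0.54 to 0.13) for Mir103-2 and -0.41 (-1.75 to 0.94) for Mir103-1, none of which passed. With 11 counts in each library, a difference of this size in Mir103-1 was not detectable at this depth. Reads at the Mir378a place were not tested and differed least, with a log2 ratio of 0.04 (0.02 to 0.07). The ratio of the Mir378a place to Mir107 therefore moved from 1.97 in pup 1 to 2.49 in pup 2.

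**Figure D4:**
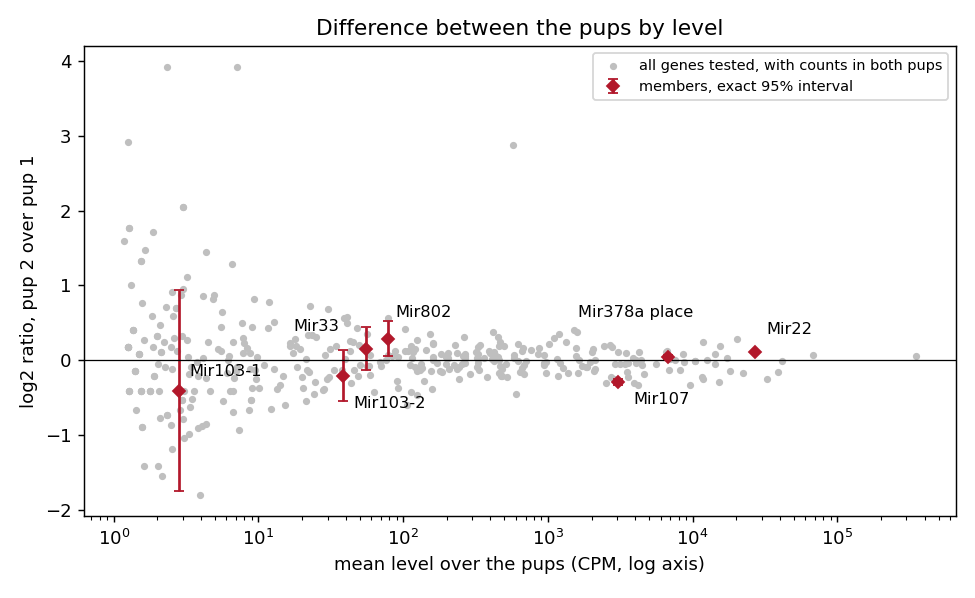
Log2 ratio of pup 2 over pup 1 (y axis) against mean level in CPM (x axis, log) for the tested genes with counts in both pups (grey) and the metabolic genes (red, with exact 95% intervals). Mir107, at -0.29, lies below 0 and Mir22, at 0.11, slightly above it, while the interval of Mir103-1 spans -1.75 to 0.94.

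Other microRNAs known from lipid and glucose metabolism give the setting. All 15 listed for lipid and cholesterol metabolism had at least 10 counts in both pups and together held 36.0% and 37.3% of the counts, mostly Mir122. After Mir122 came Mir223 (8567 and 7846 CPM) and Mir148a (3694 and 3306 CPM), a repressor of the LDL receptor, so Mir22 stood above every gene of that list except Mir122. Of the 15, 5 were higher and 3 lower in pup 2 by the exact binomial test, with a median log2 ratio of 0.12 beside 0.00 over all genes tested. Over all 390 genes tested, 15.9% were higher and 14.4% lower, and the share called in either direction was 65.4% among the 130 genes with 1000 counts or more in each pup. Of 13 listed for glucose and insulin, 12 had at least 10 counts in both pups, the exception being Mir29b-2. They held 5.97% and 5.62%, led by Mir26b (41157 and 36936 CPM), Mir143 (13832 and 14617 CPM) and Mir375 (1924 and 2084 CPM), a microRNA of pancreatic islets. Of these 13, 2 were higher and 5 lower in pup 2, beside the same 15.9% and 14.4% of all genes, with a median log2 ratio of 0.04. Mir107 stood above Mir375 and below Mir143 in both pups.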

How the data were processed

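MicroRNA sequencing libraries from 2 newborn mouse livers were used. The authors deposited raw counts of uniquely mapped reads for each microRNA gene, on mm10 with GENCODE M4 according to notes that accompany the tables. The aligner, the counter and the trimming were not given in the sources used here. The files have no header. Their columns were read as counts without strand, on the gene strand and on the opposite strand. Unassigned and gene counts add up to the same uniquely mapped total in each, which does not tell the strands apart. The column read as the gene strand held 3422622 and 4538427 gene counts, and that read as the opposite strand 166702 and 213909. Uniquely mapped reads in no gene-strand microRNA entry, 333144 and 499994, stayed out of library sizes. Total reads numbered 6028986 and 8277738, of which 25.2% and 24.7% mapped to several loci.

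Symbols and coordinates came from GENCODE M21, and sequences from RefSeq (GRCm38.p6). Both name the same assembly as the files. The RefSeq table is not complete, and no genome sequence was used, so matches outside hairpins were not searched. CPM, exact intervals and the binomial test were computed with SciPy 1.17.1. edgeR 4.0.16 and DESeq2 1.42.0 gave alternative scalings and the negative binomial test, and RNAfold 2.7.2 the free energies. The binomial test was checked on counts simulated with counting error alone, so that check does not cover spread between pups. The negative binomial test was checked on counts simulated with its own estimated dispersion. Members, gene lists and tests were chosen with earlier results of these data known. Named besides the 7 genes were the next gene above and below each in mean level, loci with a shared seed, the Mir378 loci and up to 3 leading genes of each list. Ligation and capture differences between sequences were not corrected. Marker genes Mir142 and Mir9-1 had no entry under those symbols and were not analysed here, so the leukocyte markers leave Mir142 out. The entry Mir142b had 0 gene-strand counts but 45420 and 58328 opposite-strand counts in pup 1 and pup 2. Those reads were not assigned to a marker.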

Additional observations from a re-analysis of the deposited data

How the results depend on the processing

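The summed level of the 7 genes, 37137 CPM, became 35439 CPM with counts made without strand, 57030 CPM without Mir122 in the total, 33643 CPM per uniquely mapped read and 23940 CPM when reads at several loci were added to the total. These denominators scale every gene nearly alike. Each of the 7 genes had reads on 1 strand only, so counts made without strand could not change their order. Each pup alone gave 36337 to 37937 CPM for the sum, 72.8 to 76.6 for the ratio of Mir107 to Mir103, and the same order. With 1 mismatch allowed, 5 in place of 1 of the distinct mature sequences matched another hairpin. The negative binomial test called 0 in place of 2 of the 6 genes between the pups and 2 in place of 118 of all genes, where it adds the spread between the pups to counting error. Of 52 recomputed log2 ratios of the 7 genes, 0 changed direction. Mir22 and Mir107 lost their calls in the negative binomial test alone. Mir802 was called in 4 of 8 alternatives (without strand, without Mir122, TMM and at least 100 counts), with adjusted p from 0.025 to 1 over the 8. The log2 ratio of the Mir378a place was 0.07 without Mir122 in the total. The comparison of the pups has 1 library on each side, so leaving out a pup gives no value for it. Depth limits Mir103-1 most, at 11 counts in each pup.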
